A study of Homo sapiens with 6 samples.

Results

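The 8 genes described here, ANKRD37, VEGFA, ADM, BNIP3, BNIP3L, HILPDA, LDHA and TPI1, are known for the cell's answer to low oxygen and for glycolysis. They were taken by gene symbol from the platform annotation, which gave 1 array feature for each of them, and they are 8 of the 14884 genes that could be named and tested. RNA was measured on Affymetrix arrays in A549, an established human lung adenocarcinoma cell line, after heat, X-rays or both. All cells were first cultured for 24 h at 37 °C, and there was 1 array in each of 6 groups. The control received nothing further. A second array came from cells given 3 Gy of X-rays and kept for 3 h at 37 °C, and others from cells heated for 1 h at 41.5 °C (mild heat) or 44 °C (severe heat) and then kept for 3 h at 37 °C. The remaining 2 groups were heated at either temperature and irradiated with 3 Gy at once afterwards. The labels state neither how long they were then kept nor when the control was harvested. These data come from 1 cell line. Whether the arrays came from separate cultures is not stated in the labels. With 1 array in each group, a p-value here does not measure the spread of like arrays. It rests on how far the arrays depart from a sum of heat and X-ray effects, and such departures could be technical.

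In cells short of oxygen, the hypoxia-inducible factors HIF-1 and HIF-2 are no longer hydroxylated by the prolyl hydroxylases (EGLN proteins) and escape destruction through the VHL ubiquitin ligase. They pair with ARNT and bind the hypoxia response element, a short motif with the core ACGTG or GCGTG, near their target genes. Those targets serve blood vessel growth, a shift from respiration to glycolysis, removal of mitochondria and storage of lipid. Several of them also respond to other stresses.

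The deposited values are log2 levels after the authors' normalization, with medians over 53617 features from 4.39 to 4.46 and correlations between pairs of arrays from 0.970 to 0.989 across features. Of 8 markers of lung epithelial carcinoma 7 could be named, with mean levels of 6.46 to 6.62 in the 6 arrays. The keratin gene KRT18 lay between 11.43 and 11.59, whereas KRT19, at 4.33 to 4.54, and SFTPC, the surfactant gene of alveolar cells, at 3.99 to 4.62, lay near the median of all features. EPCAM was higher at 44 °C than at 41.5 °C by 0.45 (adjusted p = 0.0249 in limma) and the keratin gene KRT7 lower (-0.40, adjusted p = 0.0230), and the other 5 were not called. The endothelial markers that could be named, 2 of 4, had mean levels of 3.62 to 4.01, and 0 of 4 fibroblast markers could be named. Of the 5 leukocyte markers 2 could be named, and their mean level was 7.46 in both 44 °C arrays against 6.67 to 6.97 in the other 4, with CD68 higher at 44 °C than at 41.5 °C by 0.56 ± 0.08 (SE, adjusted p = 0.00221 in limma) and CD14 by 0.77 ± 0.13 (adjusted p = 0.00362). The part of these markers in the results was not tested.

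Temperatures were compared in an additive limma model of all 6 arrays, with temperature as a factor and X-rays as a term, so that each temperature had 2 arrays. A gene was called at a Benjamini-Hochberg adjusted p under 0.05 over the 14884 genes. Between severe and mild heat 7 of the 8 genes were called, 5 higher and 2 lower at 44 °C, against 12.1% of all genes called in either direction. The 8 genes were chosen with earlier results of these data known. Their shares here and below therefore do not test whether they are called more often than other genes. The values of the 2 arrays at 44 °C did not overlap those at 41.5 °C for 7 of the 8 genes, against 54.1% of all genes. Against 37 °C, 4 of the 8 were called at 44 °C (3 rose and 1 fell; 6.11% of all genes were called) and 4 at 41.5 °C (1 rose and 3 fell; 3.29% of all genes). The median difference of the 8 genes was 0.42 between 44 °C and 41.5 °C, -0.03 between 44 °C and 37 °C and 0.04 between 41.5 °C and 37 °C, beside medians of -0.02, -0.04 and 0 over all genes. The 3 comparisons share arrays, so they are not independent of each other. When variances were moderated to 1 common value instead of an intensity trend, ANKRD37 and ADM were the 2 genes still called between 44 °C and 41.5 °C. ANKRD37 was then the 1 called between 44 °C and 37 °C, and 0 were called between 41.5 °C and 37 °C. In this order of comparisons 791, 405 and 9 of all genes were called. Leaving out either array of the temperature outside a comparison leaves the same 4 arrays to decide it, so these 2 omissions are 1 check. For X-rays this holds for the 2 arrays of any temperature. Calls over all genes were also fewer in each of the following fits with an array left out. The count between 44 °C and 41.5 °C was 4 without the irradiated 44 °C array. Between 44 °C and 37 °C it was 2 without the control, 1 without the X-ray array and 2 without the irradiated 44 °C array, and between 41.5 °C and 37 °C it was 0, 0 and 1 without the control, the X-ray array and the irradiated 41.5 °C array.

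**Figure D1:**
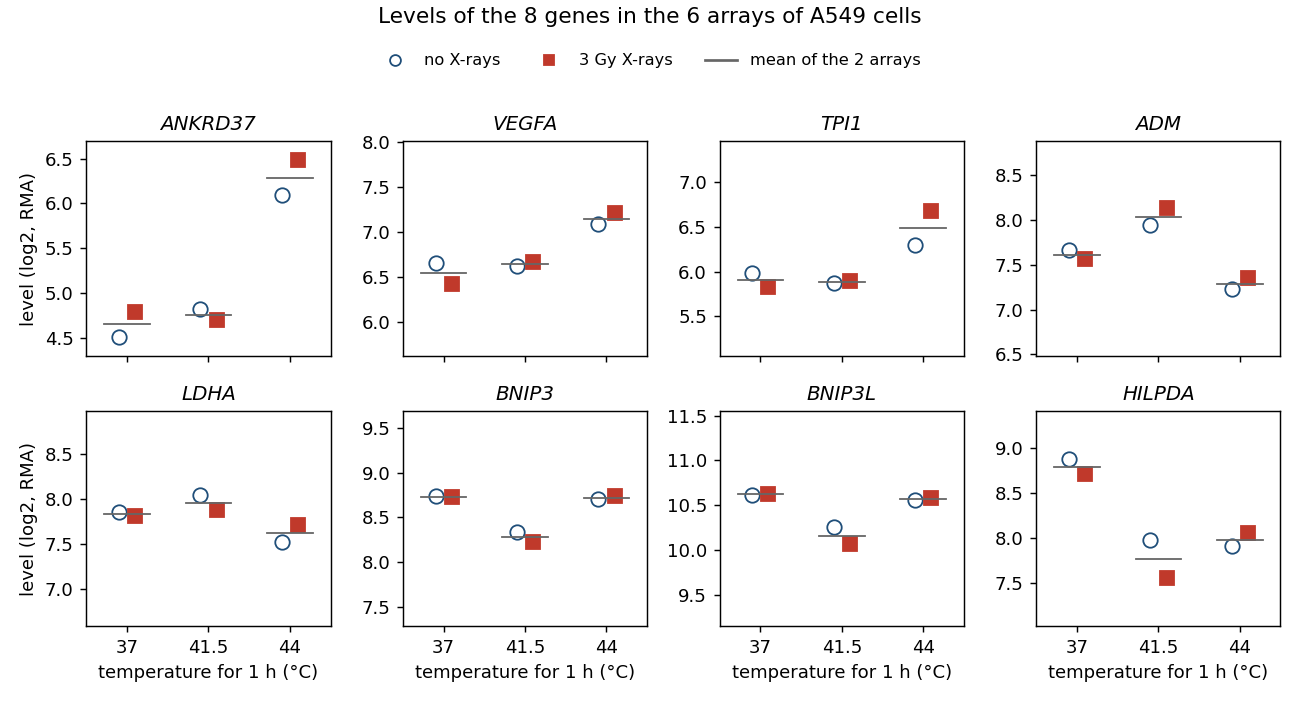
Level of each gene on the log2 scale (vertical axis, the same span in every panel) against the temperature of the 1 h treatment, with 1 point per array, open circles without X-rays, red squares with 3 Gy and a line at the mean of the 2 arrays. ANKRD37, VEGFA and TPI1 were highest in both 44 °C arrays, ADM was highest at 41.5 °C, BNIP3 and BNIP3L were lowest at 41.5 °C, and HILPDA was highest at 37 °C.

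To show the windows around the gene starts that go with these 3 kinds of pattern, the promoters of ANKRD37 (higher at 44 °C), ADM (highest at 41.5 °C) and BNIP3 (lowest at 41.5 °C) are printed below from RefSeq, build GRCh38.p14, 5′ to 3′ on the gene's strand, from 250 bases before to 50 after the start. Capitals mark each match to the hypoxia response cores ACGTG or GCGTG on either strand; the palindrome CACGTG, which is also an E-box, holds overlapping matches on both strands and was counted as 1 stretch.
ANKRD37 (chr4:185396591-185396890, + strand): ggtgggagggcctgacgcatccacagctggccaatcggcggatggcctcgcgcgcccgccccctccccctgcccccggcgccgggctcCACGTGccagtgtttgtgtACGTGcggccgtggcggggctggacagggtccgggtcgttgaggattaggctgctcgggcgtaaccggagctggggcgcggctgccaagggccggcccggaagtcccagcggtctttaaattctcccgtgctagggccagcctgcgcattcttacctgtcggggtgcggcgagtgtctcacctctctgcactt
ADM (chr11:10304823-10305122, + strand): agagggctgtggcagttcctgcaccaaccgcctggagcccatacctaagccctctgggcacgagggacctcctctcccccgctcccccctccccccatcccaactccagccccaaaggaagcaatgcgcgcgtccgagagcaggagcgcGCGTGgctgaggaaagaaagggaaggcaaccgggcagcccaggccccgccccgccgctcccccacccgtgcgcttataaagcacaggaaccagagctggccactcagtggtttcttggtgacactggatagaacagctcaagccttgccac
BNIP3 (chr10:131981874-131982173, - strand): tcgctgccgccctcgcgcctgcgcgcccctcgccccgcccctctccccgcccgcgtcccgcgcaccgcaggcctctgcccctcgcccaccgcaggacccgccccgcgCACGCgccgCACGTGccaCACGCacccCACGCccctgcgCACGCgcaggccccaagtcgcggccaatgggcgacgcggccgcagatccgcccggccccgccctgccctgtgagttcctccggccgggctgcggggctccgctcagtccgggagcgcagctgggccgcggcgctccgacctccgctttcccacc
The ANKRD37 window held 2 such stretches, beginning 162 and 143 bases before the start. The ADM window held 1, at 101 bases before the start, and the BNIP3 window 5, between 143 and 104 bases before it. Of the 8 genes 5 had an entry (ANKRD37, ADM, BNIP3, LDHA and TPI1; not VEGFA, HILPDA or BNIP3L). The table gives windows at 2 starts each for LDHA and TPI1, 7 in all. At least 1 match lay in 6 of these 7 windows, beside 48.4% of all 35116 windows of this length. LDHA had 4 stretches at its first start and 1 at the other, and TPI1 had 0 and 2. The paired heat shock element, searched as GAANNTTC and TTCNNGAA on both strands, had 0 matches in the same 7 windows and at least 1 in 13.5% of all windows. A match describes the letters of the window and is not a bound site.

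ANKRD37, an ankyrin repeat protein and a known HIF-1 target, had the largest difference of the 8 genes in both comparisons with 44 °C. On the log2 scale it stood at 4.51 in the control and 4.79 after X-rays alone, 4.82 after 41.5 °C and 4.70 after 41.5 °C with X-rays, and 6.09 after 44 °C and 6.48 after 44 °C with X-rays. Both 44 °C arrays lay above all of the other 4, and the 37 °C and 41.5 °C arrays overlapped. The gene was 2.87-fold higher at 44 °C than at 41.5 °C (log2 difference 1.52 ± 0.15, adjusted p = 0.000193 in limma) and 3.11-fold higher than at 37 °C (1.64 ± 0.15, adjusted p = 0.000112). Throughout, ± gives the SE of the additive model, from the residual of all 6 arrays moderated by the intensity trend. That residual also holds any interaction of heat and X-rays, so the SE is not the spread of like arrays at a temperature. The difference between 41.5 °C and 37 °C was 0.12, with a 95% interval of -0.22 to 0.45 and no call (adjusted p = 0.783). Among all genes, ranked by their difference, ANKRD37 stood at place 58 from the top between 44 °C and 41.5 °C and at place 57 between 44 °C and 37 °C. Both calls held when any 1 array was left out, with values from 1.30 to 1.75 and from 1.48 to 1.79. It is the 1 gene of the 8 whose mean level, over the 6 arrays, fell below that of the median gene.

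VEGFA, the growth factor that draws new blood vessels, followed the same order at a smaller size. Its log2 level was 6.66 in the control, 6.42 after X-rays alone, 6.62 and 6.67 after 41.5 °C without and with X-rays, and 7.09 and 7.21 after 44 °C without and with X-rays. Again the 44 °C arrays were the highest, and the 41.5 °C arrays lay among or just above those at 37 °C. It was 1.42-fold higher at 44 °C than at 41.5 °C (0.50 ± 0.11, adjusted p = 0.0156 in limma) and 1.52-fold higher than at 37 °C (0.61 ± 0.11, adjusted p = 0.00917). The first call was lost when the 41.5 °C array (0.44, adjusted p = 0.0845) or the 44 °C array with X-rays (0.40, adjusted p = 0.110) was left out. The second was lost when the X-ray array (0.45, adjusted p = 0.183) or the 44 °C array with X-rays (0.50, adjusted p = 0.0649) was left out. The 1 feature does not tell the splice forms of VEGFA apart.

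Adrenomedullin, the vasodilator peptide encoded by ADM, went the other way between the temperatures. On the log2 scale it stood at 7.66 in the control and 7.56 after X-rays alone, was 7.94 at 41.5 °C alone and 8.13 with X-rays added, and was 7.23 and 7.35 at 44 °C, again alone and with X-rays. All 3 temperatures were separate, in the order 44 °C, 37 °C, 41.5 °C from lowest to highest. ADM was 1.67-fold lower at 44 °C than at 41.5 °C (-0.74 ± 0.09, adjusted p = 0.000785 in limma), at place 225 from the bottom of all genes, and this call held when any 1 array was left out (-0.83 to -0.66). Against 37 °C it rose 1.34-fold at 41.5 °C (0.42 ± 0.09, adjusted p = 0.0386), whereas its value at 44 °C, -0.32 with a 95% interval of -0.53 to -0.11, was not called (adjusted p = 0.0808). The rise at 41.5 °C was not called without the control (adjusted p = 0.130), the X-ray array (0.30, adjusted p = 0.445) or the 41.5 °C array with X-rays (0.34, adjusted p = 0.250). After a further quantile normalization it was 0.38 and not called (adjusted p = 0.0573), whereas the fall at 44 °C then was (-0.36, adjusted p = 0.0426).

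The enzymes of the glycolytic path differed in opposite directions between 44 °C and 41.5 °C. TPI1, triosephosphate isomerase, which interconverts the triose phosphates, had log2 levels of 5.98 in the control, 5.83 after X-rays alone, 5.87 and 5.89 after 41.5 °C without and with X-rays, and 6.30 and 6.68 after 44 °C without and with X-rays. The 44 °C arrays were highest and the other 4 lay within 0.15 of each other. It was 1.53-fold higher at 44 °C than at 41.5 °C (0.61 ± 0.14, adjusted p = 0.0163 in limma) and 1.5-fold higher than at 37 °C (0.58 ± 0.14, adjusted p = 0.0322). With the irradiated 44 °C array left out these values were 0.39 (adjusted p = 0.159) and 0.36 (adjusted p = 0.238). The first call was also lost without the irradiated 41.5 °C array (adjusted p = 0.0873). The second was also lost when the control (adjusted p = 0.102) or the X-ray array (0.41, adjusted p = 0.331) was omitted.

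LDHA, the lactate dehydrogenase subunit that turns pyruvate into lactate, had log2 levels of 7.85 in the control, 7.81 after X-rays alone, 8.04 and 7.88 after 41.5 °C without and with X-rays, and 7.52 and 7.71 after 44 °C without and with X-rays. The order of the temperatures was that of ADM, with no overlap between them, but the steps were small. The gene was 1.27-fold lower at 44 °C than at 41.5 °C (-0.34 ± 0.10), a call close to the threshold (adjusted p = 0.0488 in limma). In a fit of the 4 arrays at these temperatures alone the call was lost (adjusted p = 0.109 in limma). Leaving out the control or the X-ray array comes to the same fit. The call was also lost without the 41.5 °C array (-0.22) or the 44 °C array (-0.20), and with moderation robust to outlying variances (adjusted p = 0.0510). Against 37 °C neither temperature gave a call (-0.22, with a 95% interval from -0.43 to 0, at 44 °C, and 0.13, from -0.09 to 0.34, at 41.5 °C). RefSeq names 6 pseudogenes after LDHA, 4 after TPI1 and 46 after BNIP3, so the signal of these 3 genes may hold that of near-identical copies.

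BNIP3 and BNIP3L, related proteins of the outer mitochondrial membrane that serve as receptors for mitophagy, were lower at 41.5 °C than at either other temperature. BNIP3 had log2 levels of 8.74 in the control and 8.73 after X-rays alone, 8.34 and 8.23 after 41.5 °C without and with X-rays, and 8.71 and 8.74 after 44 °C without and with X-rays. The 41.5 °C arrays were the lowest, and the 37 °C and 44 °C arrays lay within 0.03 of each other. BNIP3 fell 1.37-fold at 41.5 °C against 37 °C (-0.45 ± 0.08, adjusted p = 0.0136 in limma) and was 1.36-fold higher at 44 °C than at 41.5 °C (0.44 ± 0.08, adjusted p = 0.00519). For BNIP3L the levels were 10.61 in the control and 10.63 after X-rays alone, 10.26 and 10.07 after 41.5 °C without and with X-rays, and 10.56 and 10.58 after 44 °C without and with X-rays. It fell 1.37-fold at 41.5 °C (-0.45 ± 0.08, adjusted p = 0.0130) and was 1.33-fold higher at 44 °C than at 41.5 °C (0.41 ± 0.08, adjusted p = 0.00773). Between 44 °C and 37 °C the differences were -0.01 for BNIP3 (95% interval -0.18 to 0.16) and -0.05 for BNIP3L (-0.22 to 0.12), and neither was called. Of the 28 pairs among the 8 genes, this pair had the closest profiles, with a Euclidean distance of 0.08 over the 6 arrays after centring each gene, followed by VEGFA and TPI1 at 0.24 and ADM and LDHA at 0.49. The falls at 41.5 °C were lost without the control, the X-ray array or the irradiated 41.5 °C array, with adjusted p up to 0.262 for BNIP3 and 0.278 for BNIP3L. Between 44 °C and 41.5 °C the call of BNIP3 held when any 1 array was left out (0.38 to 0.50), while that of BNIP3L was lost when the irradiated 41.5 °C array (adjusted p = 0.0558) or the irradiated 44 °C array (adjusted p = 0.0748) was omitted.

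HILPDA, a small protein of lipid droplets that restrains the breakdown of stored triglyceride, was lower at both temperatures than at 37 °C. The level, in log2 units, was 8.88 in the control and 8.71 after X-rays alone, 7.98 and 7.55 after 41.5 °C without and with X-rays, and 7.91 and 8.05 after 44 °C without and with X-rays. The 37 °C arrays stood above all 4 heated arrays, while the heated arrays overlapped each other. The gene fell 2.05-fold at 41.5 °C (-1.03 ± 0.12, adjusted p = 0.00197 in limma), the sixth lowest difference of all genes, and 1.76-fold at 44 °C (-0.82 ± 0.12, adjusted p = 0.00235), at place 64 from the bottom. Both calls were lost without the control (adjusted p = 0.0882 at 41.5 °C and 0.0963 at 44 °C) or without the X-ray array (adjusted p = 0.156 and 0.0859), although the values stayed between -1.24 and -0.60 whichever array was left out. Between 44 °C and 41.5 °C its difference was 0.22, with a 95% interval of -0.05 to 0.48 and no call (adjusted p = 0.296). It was 0.43 without the 44 °C array (adjusted p = 0.0444), 0.42 without the 41.5 °C array (adjusted p = 0.0467) and 0 without the irradiated 44 °C array.

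**Figure D2:**
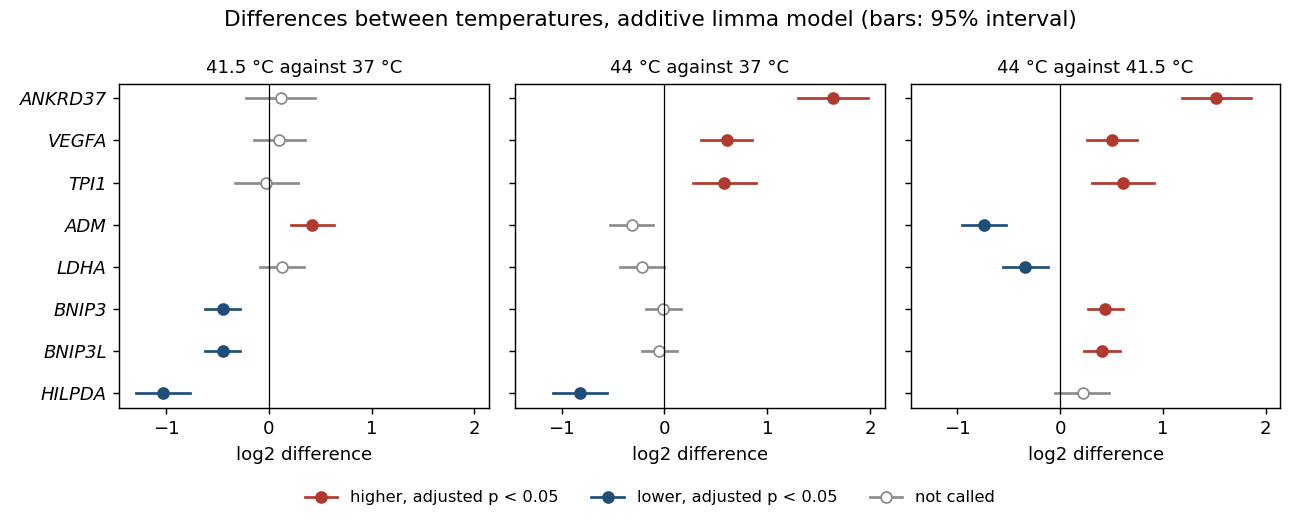
Difference of each gene on the log2 scale in the 3 temperature comparisons, with bars for the 95% interval from the additive limma model, red for genes called higher, blue for genes called lower and grey for genes not called. ANKRD37 stands out at 1.64 and 1.52 in the comparisons with 44 °C, and HILPDA at -1.03 at 41.5 °C.

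**Figure D3:**
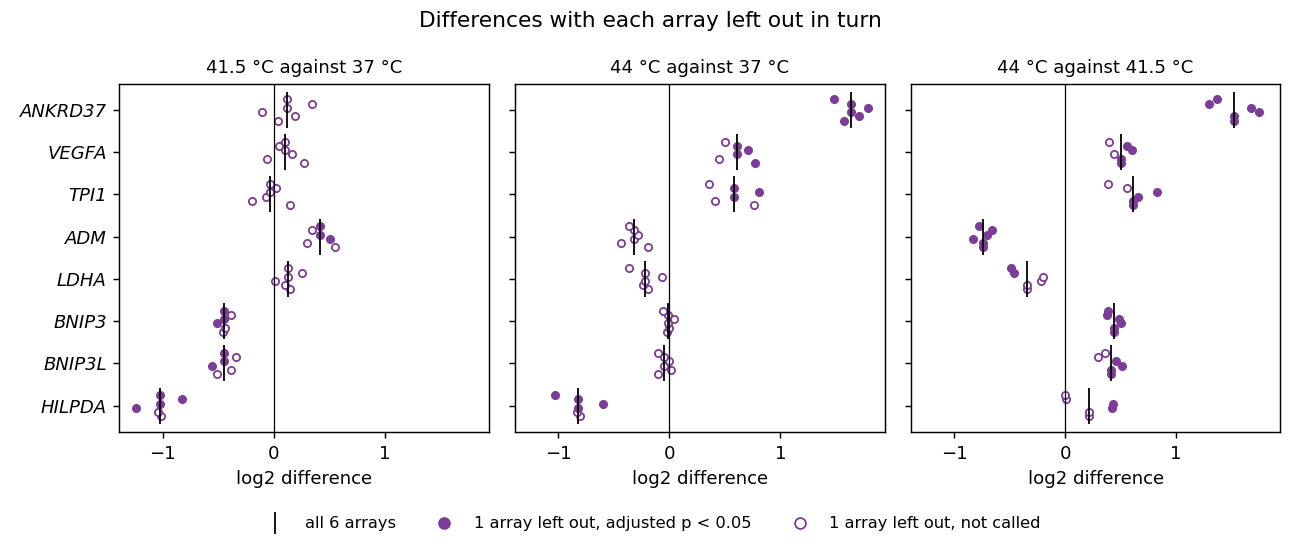
Difference on the log2 scale with all 6 arrays (black ticks) and with each array left out in turn (purple points, filled where the adjusted p stayed under 0.05). Points are filled at every omission for ANKRD37 in both comparisons with 44 °C and for ADM and BNIP3 between 44 °C and 41.5 °C.

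The pairs of single arrays gave the same signs with and without X-rays for all 7 genes called between 44 °C and 41.5 °C. The model's estimate is the mean of these 2 differences, and their disagreement enters its residual. Called genes are therefore likely to agree in sign, and this agreement is not separate support for the calls. Without X-rays the differences ran from -0.71 for ADM to 1.27 for ANKRD37, and with X-rays from -0.77 to 1.78 for the same genes. HILPDA was the exception among the 8, at -0.07 without and 0.50 with X-rays.

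X-rays themselves gave 0 calls among the 8 genes and 0 among all 14884 (0% of all genes; 733 genes, 4.92%, had an unadjusted p under 0.05 in limma). With either 44 °C array left out 85 genes were called, 0 of them among the 8, and with either 41.5 °C array left out 2 were. The additive estimates over 3 irradiated and 3 unirradiated arrays ran from -0.15 for HILPDA (95% interval -0.37 to 0.06) to 0.18 for ANKRD37 (-0.09 to 0.46), and the groups overlapped for all 8. Between single arrays, X-rays went with a difference of 0.28 for ANKRD37 at 37 °C, -0.12 at 41.5 °C and 0.39 at 44 °C, and with -0.16, -0.43 and 0.14 for HILPDA. Over all genes the 5th and 95th percentiles of such differences were -0.37 and 0.39 at 37 °C, -0.39 and 0.39 at 41.5 °C and -0.36 and 0.33 at 44 °C, so ANKRD37 and TPI1 (0.38) at 44 °C and HILPDA at 41.5 °C lay just outside them. The departure of the combined treatment from the sum of both single ones was largest for TPI1 at 44 °C (0.53) and for ANKRD37 at 41.5 °C (-0.40), with 1 array per group and no test. The labels do not give the time after treatment of the control or of the irradiated heated cells. X-rays and this time therefore cannot be told apart here. Over all genes the 95th percentile of these departures was 0.51 at 44 °C and the 5th was -0.54 at 41.5 °C.

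**Figure D4:**
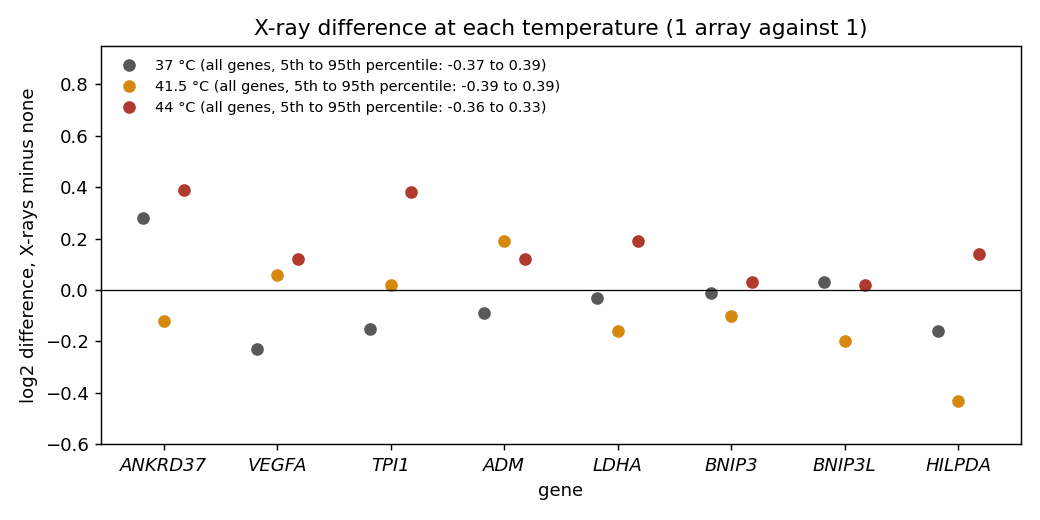
Log2 difference of each gene between the irradiated and the unirradiated array at the same temperature, with 1 point per temperature and 1 array against 1 behind each point. The points lie between -0.43 and 0.39, and most are inside the range from the 5th to the 95th percentile of all genes given in the key.

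Of 12 listed regulators of the pathway 6 could be named on the array, and HIF1A and VHL were among the 6 that could not. Of the 6 named genes 1 was called between 44 °C and 41.5 °C (16.7%, beside 12.1% of all genes), 1 between 44 °C and 37 °C (6.11% of all genes) and 0 between 41.5 °C and 37 °C (3.29%), with medians of 0.04, 0.07 and -0.07. EPAS1, which encodes HIF-2 alpha, differed by 0.04 between 44 °C and 41.5 °C, by 0.01 between 44 °C and 37 °C and by -0.03 between 41.5 °C and 37 °C. The first of these was -0.02 and the second -0.04 after median centring. In the same order, its partner ARNT had 0.05 (-0.01 after median centring), -0.19 and -0.24. The oxygen sensor EGLN1 had -0.14, 0.13 and 0.26, and EGLN3, itself a HIF target, had 0.29, 0.18 and -0.11. None of these 4 genes was called. The 95% intervals of EGLN3 reached from -0.47 to 0.65, against -0.19 to 0.20 for EPAS1. SIAH2, a ubiquitin ligase that acts on the EGLN proteins, was the 1 called regulator, higher at 44 °C than at 41.5 °C by 0.73 ± 0.09 (adjusted p = 0.000559 in limma) and than at 37 °C by 0.65 ± 0.09 (adjusted p = 0.00155). The latter call was lost without the control or the X-ray array (adjusted p up to 0.0554).

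Among 30 further hypoxia targets, 18 could be named. Between 44 °C and 41.5 °C 4 of them were higher and 1 lower (median 0.24). Between 44 °C and 37 °C 3 rose and 2 fell (median 0.07), and between 41.5 °C and 37 °C 0 rose and 2 fell (median -0.14). In the same order, 12.1%, 6.11% and 3.29% of all genes were called. With the control or the X-ray array left out, fewer calls against 37 °C were made, in this list and over all genes alike. JMJD6, an arginine demethylase and lysyl hydroxylase, had log2 levels of 6.52 to 6.90 in the 4 arrays at 37 °C and 41.5 °C and of 8.62 and 8.5 in the 44 °C arrays, a rise of 1.97 ± 0.09 against 37 °C (adjusted p = 8.06e-07) and of 1.68 ± 0.09 against 41.5 °C (adjusted p = 3.26e-06). MAFF, a small MAF transcription factor, rose by 0.91 ± 0.13 against 37 °C and was 0.71 ± 0.13 higher than at 41.5 °C. The former was not called when the control was omitted (adjusted p = 0.0886), nor the latter when the 44 °C array was (adjusted p = 0.0638).

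WSB1, a substrate receptor of a ubiquitin ligase, was lowest at 41.5 °C, as BNIP3 and BNIP3L were. On the log2 scale it stood at 8.59 in the control and 8.67 after X-rays alone, 8.04 and 7.98 after 41.5 °C without and with X-rays, and 8.92 and 8.86 after 44 °C without and with X-rays. It fell by 0.62 on the log2 scale at 41.5 °C (SE 0.08, adjusted p = 0.00366), a call lost when the control or the X-ray array was omitted (adjusted p up to 0.189). It was 0.88 ± 0.08 higher at 44 °C than at 41.5 °C (adjusted p = 1e-04). Its 44 °C arrays also lay above those at 37 °C, by 0.26, which was not called (adjusted p = 0.0923). KDM3A, a histone demethylase, fell outside the naming rule and was added after its values were seen. It was higher at 44 °C by 0.60 ± 0.09 than at 41.5 °C and by 0.36 ± 0.09 than at 37 °C. The latter call was lost when any of the 4 arrays at these temperatures was omitted (adjusted p up to 0.330) and after median centring (0.31, adjusted p = 0.0832).

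Calls below the 37 °C level at 44 °C were made for DDIT4 and ANGPTL4. DDIT4, an inhibitor of mTOR signalling, had log2 levels of 8.99 and 8.91 at 37 °C without and with X-rays, 8.37 and 8.48 at 41.5 °C, and 8.30 and 8.27 at 44 °C. It fell by 0.52 at 41.5 °C (adjusted p = 0.00821) and by 0.66 at 44 °C (adjusted p = 0.000759). The call at 41.5 °C was lost without the control or the X-ray array (adjusted p up to 0.185), and that at 44 °C without the control (adjusted p = 0.0525). ANGPTL4, a secreted inhibitor of lipoprotein lipase, fell by 0.82 at 44 °C against 37 °C (SE 0.12, adjusted p = 0.00248), was not called at 41.5 °C (-0.24, adjusted p = 0.355) and was 0.58 lower at 44 °C than at 41.5 °C (adjusted p = 0.0107). Its fall against 37 °C was not called without the control (-0.61, adjusted p = 0.0827), and the other difference was not called without the 44 °C array (-0.43, adjusted p = 0.0808) or the irradiated 41.5 °C array.

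Of 20 further glycolysis genes 8 could be named. In the temperature comparisons 1 was called, between 44 °C and 41.5 °C, beside 12.1% of all genes. HKDC1, a hexokinase-like enzyme, was 0.56 ± 0.10 lower at 44 °C than at 41.5 °C (adjusted p = 0.00487 in limma), with log2 levels of 6.93 and 7.17 against 7.62 and 7.60. This is the direction of LDHA and not that of TPI1. GAPDH and PGK1, the enzymes that follow triosephosphate isomerase in the path, had differences of 0.03 and 0.08 between 44 °C and 41.5 °C. The values of the 8 genes ran from -0.56 for HKDC1 to 0.45 for PGAM1, with a median of 0.05 and 6 above 0. PGAM1, named after its values were seen, went in the direction of TPI1 and was not called (0.45 ± 0.15, adjusted p = 0.0901 in limma). Between 44 °C and 37 °C and between 41.5 °C and 37 °C 0 of the 8 were called, beside 6.11% and 3.29% of all genes. Their values ran from -0.24 to 0.19 and from -0.26 to 0.34.

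Among the genes that carry pyruvate into the mitochondrion and oxidise it, 7 of 12 could be named. DLD, a subunit shared by several dehydrogenase complexes, was 0.39 lower at 44 °C than at 41.5 °C (adjusted p = 0.0157 in limma) and fell by 0.41 against 37 °C (adjusted p = 0.0202), and PDHB, a subunit of pyruvate dehydrogenase, fell by 0.33 against 37 °C (adjusted p = 0.0387). PDP1, the phosphatase that activates pyruvate dehydrogenase, was 0.72 ± 0.16 higher at 44 °C than at 41.5 °C (adjusted p = 0.0186), which came to 0.45 without the irradiated 41.5 °C array (adjusted p = 0.198). The calls of DLD and PDHB against 37 °C were lost when any of the 4 arrays concerned was omitted. That of DLD between 44 °C and 41.5 °C was lost without the 41.5 °C or the 44 °C array, and that of PDP1 also without either 44 °C array.

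Of 12 further mitophagy genes 10 could be named. MAP1LC3B, which encodes the LC3 protein that coats autophagosomes and binds BNIP3 and BNIP3L, had log2 levels of 4.61 to 4.84 in the 4 arrays at 37 °C and 41.5 °C and 5.91 and 5.66 at 44 °C without and with X-rays. It was 1.04 ± 0.15 higher at 44 °C than at 41.5 °C (adjusted p = 0.00158 in limma) and rose by 1.15 ± 0.15 compared with 37 °C (adjusted p = 0.00112, and 0.0535 without the control). GABARAPL1, of the same protein family, fell at 41.5 °C (-0.53, adjusted p = 0.0245), rose against 37 °C at 44 °C (0.47, adjusted p = 0.0271) and was 1.00 ± 0.11 higher at 44 °C than at 41.5 °C (adjusted p = 0.000272). The fall at 41.5 °C was lost without the X-ray array (adjusted p = 0.368), the control or the irradiated 41.5 °C array. The rise at 44 °C was lost when any of the 4 arrays at these temperatures was omitted (adjusted p up to 0.357). Without a term for X-rays neither was called (adjusted p = 0.0845 and 0.0904). SQSTM1, the autophagy receptor p62, was 0.36 lower at 44 °C than at 41.5 °C (adjusted p = 0.0247, lost without the control or any of 3 of the 4 heated arrays). Counts in the order risen and fallen were 2 and 1 between 44 °C and 41.5 °C and 2 and 0 between 44 °C and 37 °C. Between 41.5 °C and 37 °C they were 0 and 1. The medians were 0.09, -0.09 and -0.11, and 12.1%, 6.11% and 3.29% of all genes were called.

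The ligands and receptors related to VEGFA and ADM gave 12 named genes of 14. PGF, the placental growth factor of the VEGF family, had log2 levels of 5.13 and 5.50 at 37 °C without and with X-rays, 5.35 and 5.65 at 41.5 °C, and 6.87 and 6.84 at 44 °C. It rose by 1.54 ± 0.13 against 37 °C (adjusted p = 5.9e-05 in limma) and was 1.36 ± 0.13 higher than at 41.5 °C (adjusted p = 0.000156), and both calls held when any 1 array was left out. VEGFB was higher at 44 °C by 0.75 ± 0.10 than at 41.5 °C (adjusted p = 0.000944) and by 0.47 ± 0.10 than at 37 °C (adjusted p = 0.0200, lost without any of the 4 arrays concerned). None of the VEGF receptors FLT1, KDR and FLT4, the neuropilins, or the adrenomedullin receptor genes CALCRL, RAMP1, RAMP2 and RAMP3 was called in any temperature comparison, with differences between -0.47 and 0.39. Of 8 lipid droplet genes 7 could be named. In the temperature comparisons 0 of these were called, beside 12.1%, 6.11% and 3.29% of all genes in the order used above. PLIN2, which coats the droplets, had differences of 0 at 44 °C and -0.41 at 41.5 °C against 37 °C.

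Over all 7 lists, 68 of 108 genes could be named, and 20.6% of these were called between 44 °C and 41.5 °C, 17.6% between 44 °C and 37 °C and 4.41% between 41.5 °C and 37 °C, beside the 12.1%, 6.11% and 3.29% of all genes. The lists too were chosen with earlier results known, so the shares are a description and not a test. Without the control these shares were 19.1%, 2.94% and 0%, beside 8.55%, 1.77% and 0.255% of all genes, and without the X-ray array 20.6%, 8.82% and 0%, beside 8.61%, 1.82% and 0.128%. The second share was 10.3% without the 44 °C array (4.43% of all genes), and the last was 2.94% without the irradiated 41.5 °C array (1.42%). X-rays gave 0 calls in the lists in the fit of all 6 arrays.

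**Figure D5:**
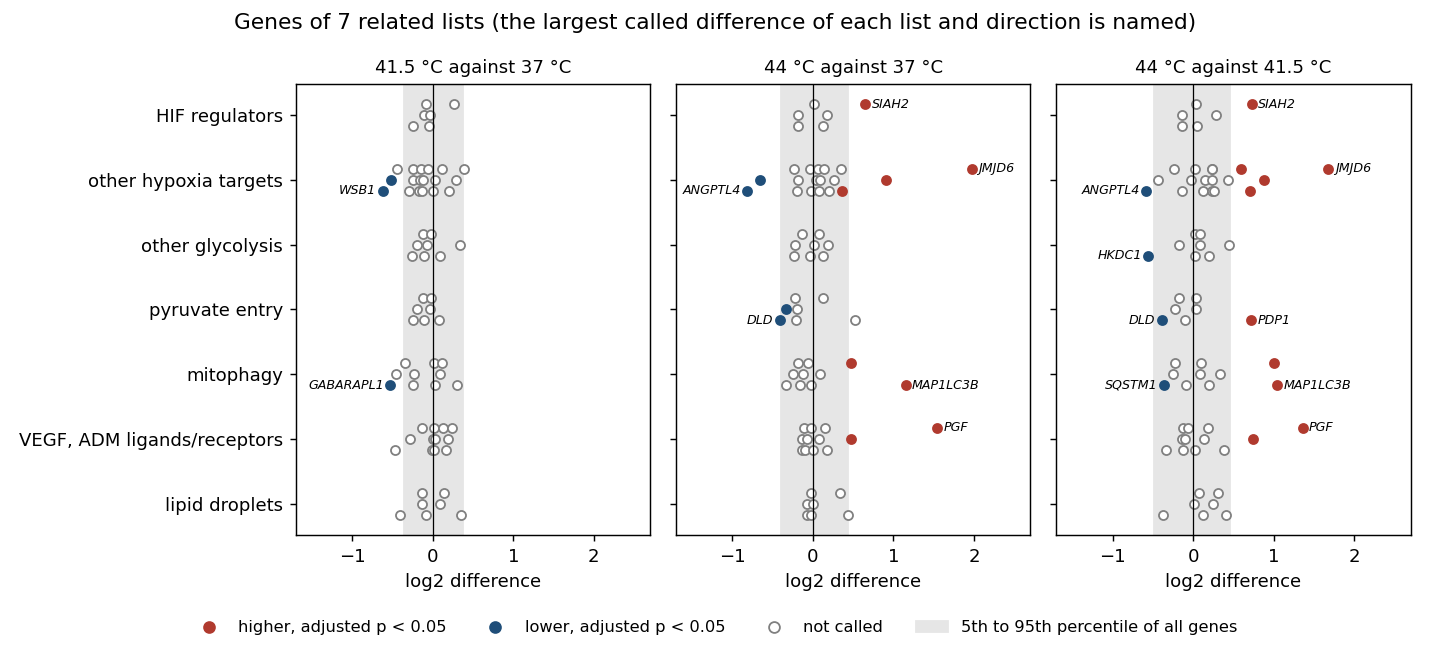
Log2 differences of the 68 named genes of 7 related lists in the 3 temperature comparisons, with 1 point per gene, filled red or blue where called higher or lower, over a grey band from the 5th to the 95th percentile of all genes. The rises at 44 °C are led by JMJD6 (1.97) and PGF (1.54), and at 41.5 °C the 3 called genes all lie below 0.

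The genes with the profiles nearest to a member were found by Euclidean distance over the 6 arrays after centring each gene, for the 2 members whose range was over 1 on the log2 scale. For ANKRD37 these were DHDH (distance 0.20), EIF1AD (0.32) and UBE2B (0.32). DHDH, a dihydrodiol dehydrogenase, had log2 levels of 5.47 to 5.60 in the 4 arrays at 37 °C and 41.5 °C and of 6.95 and 7.24 at 44 °C without and with X-rays. For HILPDA they were C5orf34 (0.40), CNTNAP3 (0.41) and ZNF878 (0.42). With 6 arrays and 14884 genes such likeness is a description of these arrays.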

How the data were processed

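RNA from 6 samples of A549 cells was measured on Affymetrix arrays, from 300 ng of total RNA each per the labels' protocols. Per the submitters' processing notes, the authors read the arrays with Affymetrix Expression Console 1.1 and summarised them by RMA (background correction, equalised distributions, 1 value per feature), and what they deposited is in log2 units. No genome build is named for the array. Of 53617 features, 16098 (30.0%) carried 1 gene symbol in the platform annotation and 37519 none. All 16098 matched the RefSeq table of GRCh38.p14 by gene ID, with 0 symbols changed. For the 779 genes with several features the one with the highest mean was used. An additive model (temperature and X-rays, 2 residual degrees of freedom, which also hold any interaction) was fitted to 14884 genes with limma 3.58.1 in R 4.3.3, with moderation by an intensity trend (prior degrees of freedom 8.06) and two-sided p-values adjusted by Benjamini-Hochberg. Temperature differences had a median SE of 0.138 (log2), and the number of arrays limits this precision. The fit was checked on simulated data with independent noise and no interaction. Of 200 genes raised at 44 °C by 0.5 on the log2 scale, 58.5% were called between 44 °C and 41.5 °C, with 17 false calls. With a rise of 1, 98% were called, with 13 false calls. The 8 genes, the 7 lists and the tests were chosen with earlier results of these data known. From each list the 2 highest and 2 lowest called genes per temperature comparison were named, and EPAS1, ARNT, EGLN1 and EGLN3 in any case. Alternatives covered moderation, scaling, a filter on dim genes, feature choice, model terms and left-out arrays.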

Additional observations from a re-analysis of the deposited data

Results flagged for a closer look

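For 7 of the 8 genes the effect of 44 °C differed from that of 41.5 °C in the direct limma test of the 2 temperatures, which share the 37 °C arrays as their reference. These are the calls between 44 °C and 41.5 °C given above and not a further result, beside 12.1% of all genes called. Those of BNIP3L, VEGFA, TPI1 and LDHA did not hold at every omission of 1 array. The difference, 44 °C minus 41.5 °C, was 1.52 on the log2 scale for ANKRD37, 0.61 for TPI1, 0.50 for VEGFA, 0.44 for BNIP3, 0.41 for BNIP3L, -0.34 for LDHA and -0.74 for ADM. For ADM the 2 effects against 37 °C had opposite signs, 0.42 at 41.5 °C and -0.32 at 44 °C, of which the former alone was called.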

How the results depend on the processing

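The 32 differences of the 8 genes (4 comparisons each) were followed through other settings, which gave 500 combinations of difference and setting. Among these, 0 called values changed sign, 60 lost a call and 3 gained one. A call could be lost only where the main fit had made one. It made 7 between 44 °C and 41.5 °C, 4 in each comparison with 37 °C and 0 for X-rays. The counts of calls moved more. With moderation that ignored the intensity trend, 2, 1 and 0 of the 8 genes were called between 44 °C and 41.5 °C, 44 °C and 37 °C, and 41.5 °C and 37 °C (791, 405 and 9 of all genes, against 1805, 910 and 489). In a fit of all 53617 features, named or not, 3, 2 and 0 of the 8 were called in the same order, beside 2527, 1916 and 33 of all features. At an adjusted p under 0.01 the counts in the same order were 4, 3 and 1 of the 8, and 807, 432 and 148 over all genes. The 4 arrays at 41.5 °C and 37 °C alone gave 800 genes. Leaving out each array in turn gave 4 to 7 of the 8 genes and 1024 to 1299 of all genes between 44 °C and 41.5 °C, 1 to 4 and 263 to 1212 between 44 °C and 37 °C, and 0 to 4 and 19 to 800 between 41.5 °C and 37 °C. For X-rays it gave 0 to 85 genes, and median centring, the filter on dim genes and the mean of features gave 1 each. The filter left out ANKRD37. Where 1 array is left at a temperature, its spread is assumed to be that of the others. The causes were not tested. No paired analysis was possible because each group has 1 array and the labels give no replicate numbers; X-rays are already a term of the model. Precision is limited by the number of arrays.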
